A study of Homo sapiens with 12 samples.

Results

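The assembly factors of the respiratory chain are proteins that build the oxidative phosphorylation complexes of mitochondria without being part of the finished enzymes. The 45 factors described here were taken by name from the 28278 gene symbols of a count table, 14 for complex I, 4 for complex II, 6 for complex III, 17 for complex IV and 4 for complex V. Neurons draw most of their ATP from these complexes. Each complex is put together stepwise from subunits, many of them made in the cytosol and imported, and the factors hold intermediates, insert heme, flavin, iron-sulfur and copper cofactors, or clear spent fragments. Inherited loss of many of these factors causes Leigh syndrome or other disease of the brain and muscle.

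RNA was sequenced from WA09-Islet1-GFP cells, a human embryonic stem cell line labelled as wild-type that carries GFP as a reporter of Islet1, a transcription factor of motor neurons. Cells were differentiated to motor neurons and exposed for 16 hours to cis-chlordane, an organochlorine insecticide, or to DMSO, its solvent, and were then dissociated with trypsin and sorted by FACS on GFP. The labels give 10 µM of cis-chlordane, while the study's methods name another dose. The 12 libraries are 3 biological replicates of each fraction, GFP-positive or GFP-negative, with each treatment. All groups come from 1 stem cell line, and the GFP-negative cells are whatever cells of the culture lacked the signal at sorting.

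The 12 libraries held between 23414935 and 38347050 counts in genes, and every member had at least 44 counts in every library. In control cells 7 of 8 motor neuron markers were higher in the GFP-positive libraries (summed level 1760 to 2360 against 303 to 330 CPM), and 6 of 6 cycling markers were lower (64.2 to 96.2 against 529 to 664 CPM). Of the other lists, 4 of 6 pan-neuronal markers were higher, and 7 of 7 tested progenitor markers and 4 of 5 tested mesenchymal markers were lower. With treatment, the GFP-positive cells had lower levels of 8 of 8 motor neuron markers (551 to 871 CPM summed), 5 of 6 cycling markers (33.4 to 38.0 CPM), 4 of 6 pan-neuronal, 4 of 7 progenitor and 3 of 3 tested mesenchymal markers, and higher levels of 1 pan-neuronal (SYT1) and 2 progenitor markers (PAX6 and OLIG2). The treated GFP-negative cells had lower levels of 6 of 8 motor neuron markers (108 to 131 CPM), 6 of 6 cycling markers (161 to 217 CPM), 5 of 6 pan-neuronal, 5 of 7 progenitor and 3 of 5 mesenchymal markers. The glial markers summed to 0.609 to 43.2 CPM over all libraries, with AQP4 at or under 3 counts in every library. The 5 pluripotency markers summed to 49.2 to 258 CPM over all libraries, with NANOG, POU5F1 and TDGF1 at or under 3 counts in every library and the rest of the sum from LIN28A and DPPA4. ISL1, the gene that the GFP reports, fell in both fractions. Its mean went from 65.7 to 12.0 CPM in GFP-positive and from 2.57 to 0.548 CPM in GFP-negative cells. Cells were sorted after the exposure, and whether treatment changed which cells were sorted as GFP-positive was not tested. The part of these shifts in the responses below was not tested, and in bulk RNA fewer cells of a type and less RNA per cell cannot be told apart.

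Levels are given as CPM, which is a gene's counts relative to the library's total, TMM-scaled over the 12 libraries, for libraries 1, 2 and 3 of a group in that order. Fold changes come from edgeR's quasi-likelihood test of the groups compared, with p-values adjusted over all tested genes by Benjamini and Hochberg, and a member is said to have risen or fallen at an adjusted p under 0.05. All 45 members passed the filter on low counts in every comparison. Per kilobase of transcript, the members spanned a wide range in control GFP-positive cells. COA3 led at 106 ± 17.5 CPM per kb (SD, n = 3), followed by COX17 at 70.0 ± 20.4 and NDUFAF3 at 58.2 ± 13.4, neighbours whose spreads overlap. LYRM7 was last at 1.27 ± 0.0729 CPM per kb, next to COX16 at 1.69 ± 0.896 and NUBPL at 1.71 ± 0.199.

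Summed over all members, the level was 1360, 1410 and 1230 CPM in control and 1220, 1410 and 1340 CPM in treated GFP-positive libraries, so that the groups overlap. Single factors moved in opposite directions. In GFP-positive cells, 8 of 45 members (17.8%) rose with cis-chlordane, where 26.5% of all 15333 genes tested did, and 7 of 45 (15.6%) fell, where 24.4% of all genes did. Both shares lie under the background. TTC19 and COA7 rose at least 2-fold (2 of 45, against 12.8% of all genes), and 0 of 45 fell at least 2-fold, against 11.2% of all genes. COA3, at -0.997, was just short of that limit in edgeR's quasi-likelihood test, also at an unadjusted p under 0.05 (0 of 45), and passed it in DESeq2 (1 of 45). The median log2 fold change was 0.13 over the members and 0.03 over all genes. Scaled by library size alone, which moved the median of all genes to 0.14, 10 members were higher and 5 lower. Without control GFP-positive replicate 2, 5 members were higher and 3 lower. In the fit of all 12 libraries, 6 were higher and 5 lower, and NDUFAF4, NDUFAF8, UQCC2, SCO2 and TMEM242 were not called.

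**Figure D1:**
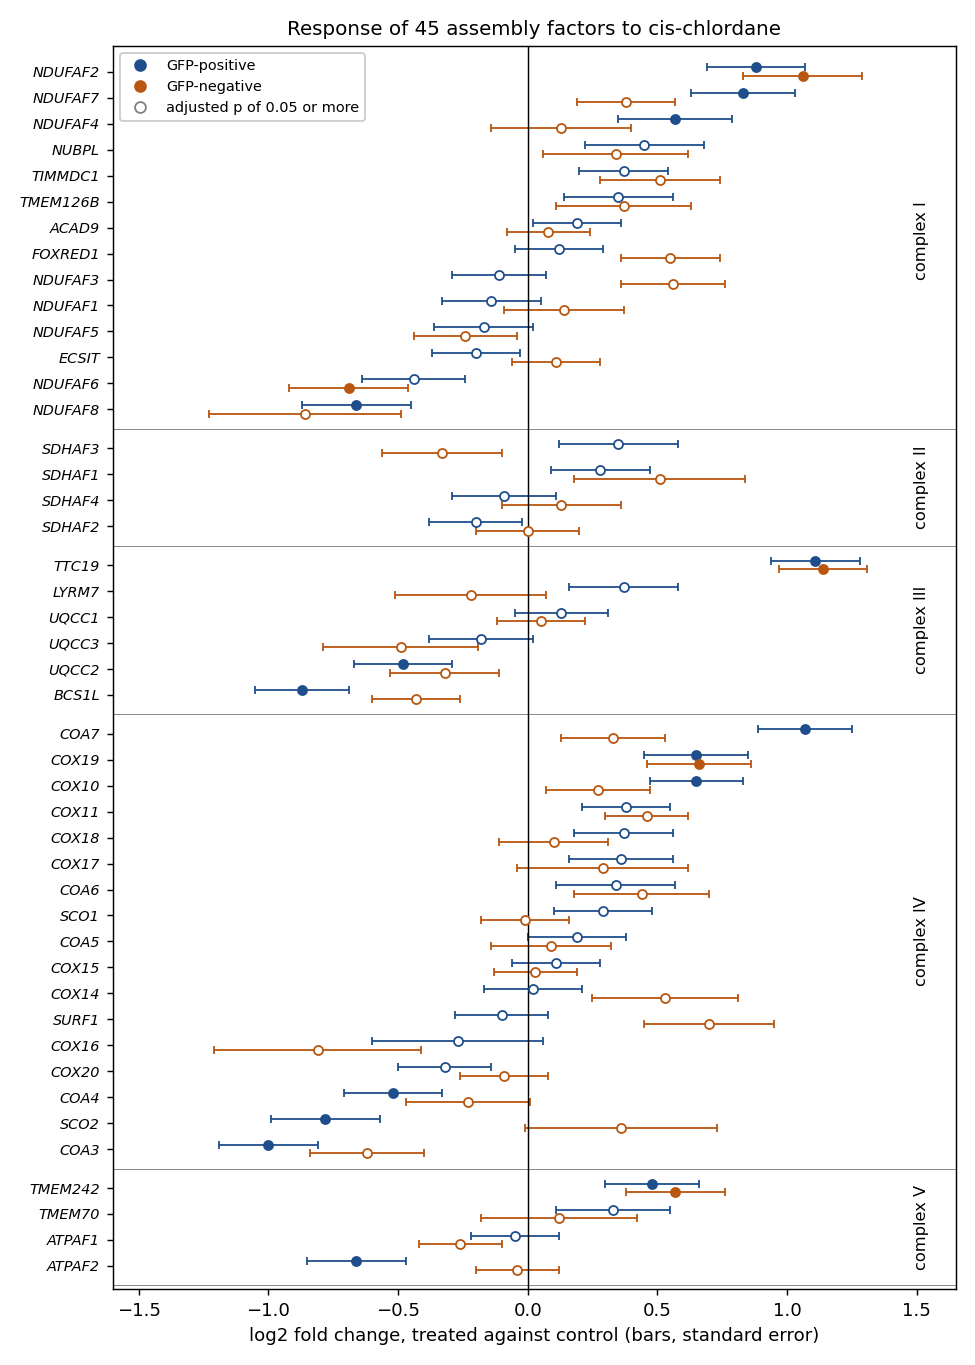
The log2 fold change of treated against control cells (x axis) for each of the 45 members (y axis, grouped by complex), with GFP-positive cells in blue, GFP-negative cells in orange, bars for the standard error and open symbols for an adjusted p of 0.05 or more. TTC19, NDUFAF2, COX19 and TMEM242 are filled on the right in both fractions, and COA3 lies farthest left in GFP-positive cells at -0.997.

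Of the 14 complex I factors, 3 rose and 1 fell in GFP-positive cells (median 0.16). NDUFAF2, a paralog of the subunit NDUFA12 that sits on a late intermediate until that subunit takes its place, had 22.1, 18.3 and 17.4 CPM in control and 30.2, 38.2 and 32.8 CPM in treated libraries. Every treated library was above every control library, with a log2 fold change of 0.88 (SE 0.19, edgeR adjusted p = 0.00018). NDUFAF7, a mitochondrial methyltransferase needed early in complex I assembly, went from 21.0, 14.9 and 17.5 to 32.0, 23.4 and 35.0 CPM. Its groups did not overlap either (log2 fold change 0.83, SE 0.20, edgeR adjusted p = 0.00066). NDUFAF4, which with NDUFAF3 holds the early module around the quinone site, had 19.2, 12.5 and 14.6 CPM in control and 14.6, 24.4 and 26.5 CPM in treated libraries. These groups overlap, since treated replicate 1 sat among the controls (log2 fold change 0.57, SE 0.22, edgeR adjusted p = 0.026). NDUFAF4 lost its call without control replicate 2 or 3 or treated replicate 2 or 3, at adjusted p of 0.19, 0.09, 0.066 and 0.072, and with the GC trend removed its log2 fold change was 0.03. The annotation also holds 2 pseudogene copies of NDUFAF2 and 4 of NDUFAF4, which could share reads with them.

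NDUFAF8, the partner that stabilizes NDUFAF5, was the complex I factor that fell. It had 35.9, 27.4 and 23.5 CPM in control and 15.5, 23.1 and 13.8 CPM in treated libraries, and the highest treated library stayed just under the lowest control (log2 fold change -0.66, SE 0.21, edgeR adjusted p = 0.0078). Without control replicate 1 the adjusted p was 0.088, and with the GC trend removed the log2 fold change was -0.26. NDUFAF5 itself, which hydroxylates an arginine of NDUFS7, had a log2 fold change of -0.17 (adjusted p = 0.48). NDUFAF3 stood at -0.11 (adjusted p = 0.63), so that the partners NDUFAF3 and NDUFAF4 had different calls, although that difference was not tested. The factors of the membrane arm, NDUFAF1, ECSIT, ACAD9, TMEM126B and TIMMDC1, had log2 fold changes between -0.20 and 0.37, with adjusted p of 0.068 or more. FOXRED1, a flavoprotein of the late steps, stood at 0.12, NUBPL, which serves iron-sulfur clusters, at 0.45, and NDUFAF6 at -0.44 (adjusted p = 0.061).

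Of the 4 complex II factors, 0 were called in GFP-positive cells in edgeR's quasi-likelihood test, with 0 at an unadjusted p under 0.05 and 0 called by DESeq2. SDHAF2, needed for the flavin of SDHA, had a log2 fold change of -0.20, and SDHAF4, which binds the flavin-bearing SDHA, of -0.09. SDHAF1 and SDHAF3, which serve the iron-sulfur clusters of SDHB, stood at 0.28 and 0.35.

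**Figure D2:**
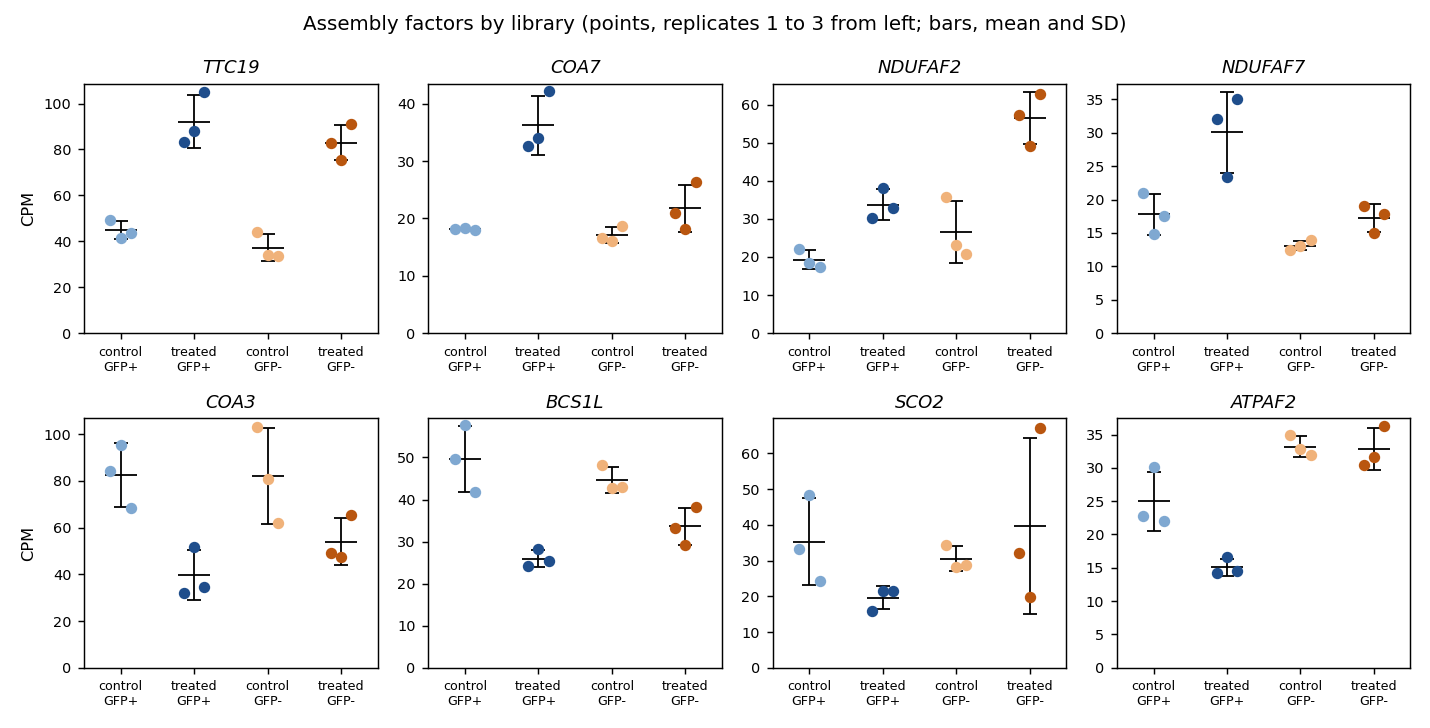
CPM (y axis, from 0) of 8 members in the 4 groups (x axis), with a point for each library and bars for the mean and SD of 3 libraries. TTC19 and NDUFAF2 are higher in treated cells of both fractions, the groups of COA7 are apart in GFP-positive cells and overlap in GFP-negative cells, and SCO2 has its highest value, 67.2 CPM, in 1 treated GFP-negative library.

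The largest rise among the members was that of a complex III factor. TTC19, which clears cleaved fragments of the Rieske iron-sulfur protein after its insertion, had 49.4, 41.6 and 43.6 CPM in control and 83.1, 88.1 and 105 CPM in treated GFP-positive libraries. The lowest treated library was well above the highest control, with a log2 fold change of 1.11 (SE 0.17, edgeR adjusted p = 1.5e-06). BCS1L, the ATPase that moves that Rieske protein across the inner membrane into complex III, went the other way, from 49.6, 57.6 and 41.9 to 24.3, 28.2 and 25.3 CPM. All 3 treated libraries were under all 3 controls (log2 fold change -0.87, SE 0.18, edgeR adjusted p = 0.00011). LYRM7, which holds the Rieske protein before insertion, had a log2 fold change of 0.37 (adjusted p = 0.13). UQCC1, UQCC2 and UQCC3 act earlier, on newly made cytochrome b. Of these UQCC2 fell, from 48.3, 68.2 and 42.5 to 32.4, 44 and 32.4 CPM, with treated replicate 2 inside the control range (log2 fold change -0.48, SE 0.19, edgeR adjusted p = 0.032). This call was lost without control replicate 2 (adjusted p = 0.31), treated replicate 1 (0.11) or treated replicate 3 (0.061), and with the GC trend removed (log2 fold change -0.28, adjusted p = 0.18). UQCC1 stood at 0.13 and UQCC3 at -0.18, neither called.

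Of the 17 complex IV factors, 3 rose and 3 fell in GFP-positive cells (median 0.19). COA7, a soluble protein of the intermembrane space required for complex IV, was tight in control cells at 18.1, 18.3 and 18 CPM and had 32.6, 34.0 and 42.2 CPM in treated cells. Its log2 fold change was 1.07 (SE 0.18, edgeR adjusted p = 9.9e-06), with no overlap. COX10, which makes heme O for the catalytic center, rose from 20.8, 21.2 and 22.5 to 34.0, 33.4 and 29.2 CPM (log2 fold change 0.65, SE 0.18, edgeR adjusted p = 0.0029), again without overlap. COX15, which turns heme O into heme A, had a log2 fold change of 0.11 (adjusted p = 0.62). COX19, a small protein that helps COX11 in copper delivery, rose from 13.7, 9.88 and 13.4 to 19.4, 18.5 and 17.5 CPM (log2 fold change 0.65, SE 0.20, edgeR adjusted p = 0.0064). Its groups were apart, but without control replicate 2, its lowest library, the adjusted p was 0.061. COX11 stood at 0.38 (adjusted p = 0.063).

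COA3 showed the largest fall of all 45 members. This membrane protein stabilizes newly made COX1 together with COX14, and it went from 84.1, 95.3 and 68.2 to 31.9, 51.8 and 34.7 CPM (log2 fold change -0.997, SE 0.19, edgeR adjusted p = 3.4e-05). The groups were apart, and COX14 had a log2 fold change of 0.02 (adjusted p = 0.94). SCO2, a copper chaperone for COX2, had 33.3, 48.3 and 24.3 CPM in control and 15.8, 21.4 and 21.6 CPM in treated libraries. The highest treated library lay just under the lowest control (log2 fold change -0.78, SE 0.21, edgeR adjusted p = 0.0021). Without control replicate 2 the log2 fold change was -0.49 (adjusted p = 0.083), and with the GC trend removed it was -0.25 (adjusted p = 0.30). SCO1, which also handles copper for COX2, stood at 0.29 (adjusted p = 0.21). COA4, a small protein of the intermembrane space, fell from 30.5, 30.8 and 26.5 to 16.7, 19.8 and 22.1 CPM without overlap (log2 fold change -0.52, SE 0.19, edgeR adjusted p = 0.020). It was not called without control replicate 1 or 2 (adjusted p = 0.07 for each), without treated replicate 1 (0.12) or with scaling by library size alone (0.075).

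The remaining complex IV factors were not called. SURF1, the factor mutated in many patients with Leigh syndrome of complex IV, had a log2 fold change of -0.10 (adjusted p = 0.66). The copper factors COX17 and COA6 stood at 0.36 and 0.34. COX18, COX20 and COX16, which act on COX2, stood at 0.37, -0.32 and -0.27, and COA5 at 0.19.

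Of the complex V factors, ATPAF2 fell and TMEM242 rose. ATPAF2, which binds the alpha subunit of ATP synthase, had 22.8, 30.1 and 22 CPM in control and 14.2, 16.6 and 14.5 CPM in treated libraries. All treated libraries were lower (log2 fold change -0.66, SE 0.19, edgeR adjusted p = 0.0046), and without control replicate 2 the adjusted p was 0.055. ATPAF1, its counterpart for the beta subunit, had a log2 fold change of -0.05 (adjusted p = 0.83). TMEM242, which with TMEM70 promotes the ring of c subunits, rose from 25.6, 22 and 24.2 to 28.3, 33.1 and 34.2 CPM (log2 fold change 0.48, SE 0.18, edgeR adjusted p = 0.027). Its groups were apart, but the call was lost without control replicate 2 (adjusted p = 0.10), control replicate 3 (0.053), treated replicate 2 (0.082) or treated replicate 3 (0.051), and with the GC trend removed (log2 fold change 0.18). TMEM70 stood at 0.33 (adjusted p = 0.20), with treated values from 13.7 to 29.4 CPM around controls of 16.4 to 18.7 CPM.

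Some members share exon sequence with neighbouring genes, and the strand setting of the counting is not given in the sources used here. In GENCODE, 62.1% of the exon bases of SCO2 lie opposite NCAPH2 and 26.1% lie within TYMP on the same strand. For COA3, 42.3% lie opposite WNK4, for UQCC2 21.9% opposite ITPR3, and for COX19 17.7% within ADAP1 on the same strand. The share was 13.5% for BCS1L, opposite ZNF142, 11.6% for ATPAF2, opposite DRC3, and 5.62% for TTC19, opposite NCOR1. Reads in these stretches could belong to either gene, so the values of SCO2 and COA3 are uncertain to that extent.

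**Figure D3:**
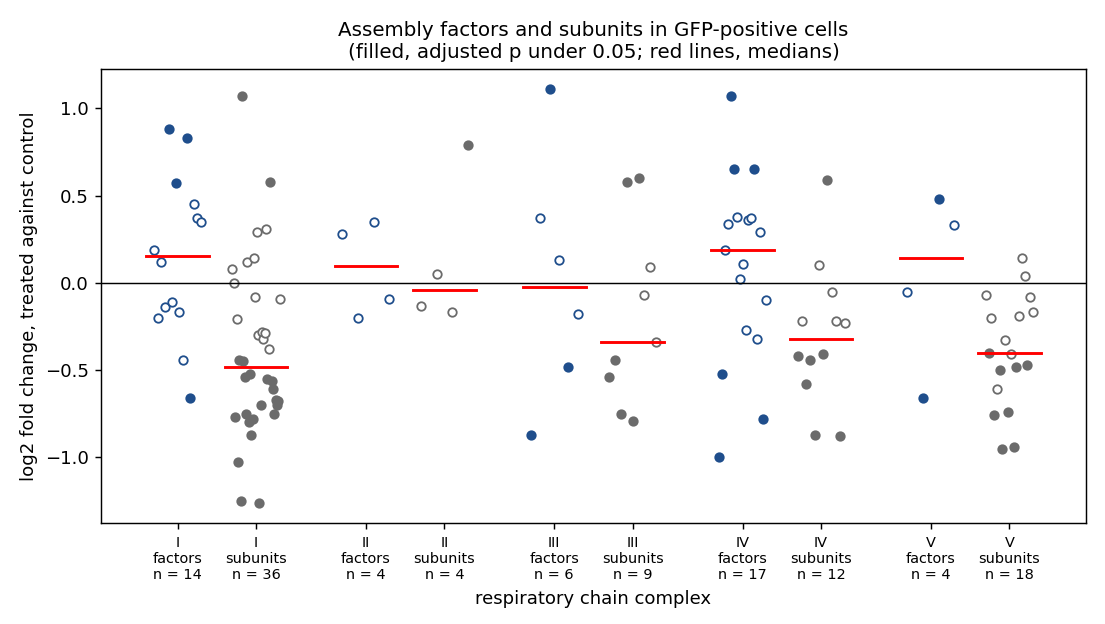
The log2 fold change of treated against control GFP-positive cells (y axis) for the assembly factors (blue) and the subunits (grey) of each complex (x axis), with filled points at an adjusted p under 0.05 and red lines for medians. The median of the factors is 0.16 for complex I, where that of the subunits is -0.48.

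The subunits that these factors assemble were counted beside them. The subunit lists also hold COX7A2L, a factor of supercomplexes, under complex IV and ATP5IF1, an inhibitor of the synthase, under complex V. In GFP-positive cells COX7A2L, at 0.59, was the 1 of its list that rose, and ATP5IF1, at -0.5, was among those that fell. COX7A2L also rose in GFP-negative cells, at 1.08. In GFP-positive cells 6 of 79 tested subunits rose and 38 fell, with a median log2 fold change of -0.40, that is 7.59% and 48.1% beside the 26.5% and 24.4% of all genes, where 8 of 45 factors rose and 7 fell with a median of 0.13. In GFP-negative cells 3 of the 79 subunits rose (3.8%) and 1 fell (1.27%), beside 15.3% and 16.2% of all genes, with a median of -0.08. The difference in response between the fractions was tested over the 12 libraries, as for the members below. In edgeR's test 0 of 79 were higher and 0 lower, where 0.968% and 1.22% of all genes were. At an unadjusted p under 0.05 there were 14 subunits, and DESeq2 called 0 of 80 higher and 1 lower. By complex, 20 of 36 subunits of complex I fell and 2 rose (median -0.48), led by NDUFB7 at -1.26 and NDUFA3 at -1.25, the latter at a low level, 0.569 CPM in control and 0.226 CPM in treated libraries. For complex III 4 of 9 fell and 2 rose (median -0.34), for complex IV 6 of 12 fell and 1 rose (median -0.32), and for complex V 8 of 18 fell (median -0.40). For complex II 1 of 4, SDHD, rose at 0.79. Another 26 assembly factors outside the 45 had a median of 0.01, and 4 of them rose (15.4%) and 6 fell (23.1%). Of these LRPPRC, which keeps mitochondrial mRNAs stable, was highest at 1.05, and UQCC6 lowest at -0.76. The difference between factors and subunits was not tested. With the GC trend removed, 9 factors were higher and 7 lower, and 1 subunit was higher and 33 lower.

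The members that rose and those that fell differed in their transcripts. The 8 that rose had a median transcript length of 2974 bases (632 to 4839) and a median GC content of 43.4% (36.5 to 52.3), while the 7 that fell had a median of 984 bases (565 to 1553) and 55.9% GC (50.2 to 64.1). The 30 members not called lay between in length, at a median of 1861 bases, with 43.7% GC. Across the 45 members the log2 fold change in GFP-positive cells had a Pearson correlation of -0.49 with GC content and 0.39 with length. These members share the 6 libraries, and genes are not independent replicates. Across 14782 genes the Spearman rho was -0.40 with GC content and 0.06 with length, and over the members it was -0.50 and 0.46. In GFP-negative cells the members' Pearson correlation was -0.03 with GC content and 0.04 with length. With the GC trend removed in each library, TTC19 (log2 fold change 0.84), COA7 (0.94), NDUFAF2 (0.66), NDUFAF7 (0.56), COX10 (0.73), COX19 (0.77), COA3 (-0.83), BCS1L (-0.62), COA4 (-0.46) and ATPAF2 (-0.40) stayed past the threshold of edgeR's test.

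**Figure D4:**
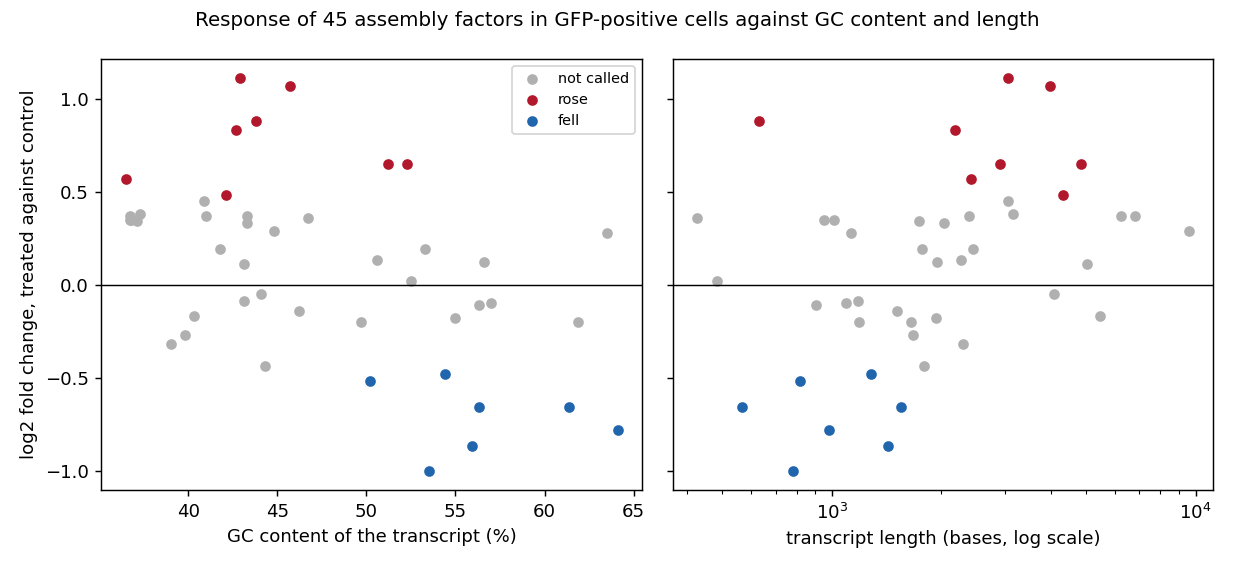
The log2 fold change of the 45 members in GFP-positive cells (y axis) against the GC content of the transcript in percent (left) and its length in bases on a log scale (right), with members that rose in red and those that fell in blue. All 7 members that fell have a GC content of at least 50.2% and a transcript of at most 1553 bases.

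Promoters of mitochondrial genes often carry sites for NRF1, GABP and YY1, factors known to bind many genes of oxidative phosphorylation. RefSeq promoters (GRCh38.p14, from 250 bases before to 50 after the start) were matched for 39 of the 45 members. Both strands were searched for GCGCANGCG (NRF1), CCGGAAG (GABP), AANATGGCG (YY1), TGATGNAAN (ATF4) and TGACGTG (XBP1 and ATF6), none of which overlap in the windows shown. NRF1 letters were found in 8 members (20.5%, against 13.9% of 11653 tested genes' promoters and 8.05% of all 27305), GABP letters in 12 (30.8%, against 17.8% and 10.7%) and YY1 letters in 7 (17.95%, against 6.34% and 3.37%). ATF4 letters were found in 1 member, ATPAF1 (1.79% of tested and 3.67% of all promoters), and XBP1 and ATF6 letters in 0 (2.46% and 2.00%). These are matches of letters and not shown to be bound sites. Of the 8 members that rose, NDUFAF4 and COX10 had a GABP match and COX10 also a YY1 match beyond the stretch shown, and of the 6 with a promoter that fell, UQCC2 had an NRF1 match, COA4 a GABP match, and UQCC2, COA3 and ATPAF2 a YY1 match. The stretches with these matches are given on the gene's strand, with the matched letters in capitals, for COX10 (chr17:14069360-14069516, plus strand, GABP), NDUFAF4 (chr6:96898007-96898063, minus strand, GABP), UQCC2 (chr6:33711671-33711773, minus strand, NRF1 then YY1), COA3 (chr17:42798675-42798924, minus strand, YY1), COA4 (chr11:73876950-73877006, minus strand, GABP) and ATPAF2 (chr17:18039139-18039187, minus strand, YY1).
COX10: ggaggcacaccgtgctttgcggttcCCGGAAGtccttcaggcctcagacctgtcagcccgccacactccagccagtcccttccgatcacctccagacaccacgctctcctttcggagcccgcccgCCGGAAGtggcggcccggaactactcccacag
NDUFAF4: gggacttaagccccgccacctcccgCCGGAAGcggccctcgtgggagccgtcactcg
UQCC2: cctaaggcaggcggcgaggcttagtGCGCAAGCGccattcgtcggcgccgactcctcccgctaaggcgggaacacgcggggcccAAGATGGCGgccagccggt
COA3: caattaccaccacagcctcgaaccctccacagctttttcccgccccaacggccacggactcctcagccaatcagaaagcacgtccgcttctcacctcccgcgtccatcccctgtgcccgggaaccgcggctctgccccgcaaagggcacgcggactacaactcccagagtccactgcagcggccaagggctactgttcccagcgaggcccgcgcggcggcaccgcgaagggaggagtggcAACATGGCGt
COA4: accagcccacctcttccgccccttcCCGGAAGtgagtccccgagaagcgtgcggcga
ATPAF2: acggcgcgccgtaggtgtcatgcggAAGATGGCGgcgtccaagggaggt

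In GFP-negative cells, 4 of 45 members (8.89%) rose with treatment, where 15.3% of 15513 genes did, and 1 of 45 (2.22%) fell, where 16.2% did. TTC19 and NDUFAF2 rose at least 2-fold (2 of 45, against 8.59% of all genes). The median log2 fold change was 0.12 over the members and -0.01 over all genes. Scaled by library size alone, 3 members were higher and 3 lower. TTC19 went from 43.9, 33.9 and 33.5 to 82.6, 75.5 and 91.0 CPM (log2 fold change 1.14, SE 0.17, edgeR adjusted p = 0.0011). NDUFAF2 went from 35.8, 23.1 and 20.9 to 57.3, 49.3 and 62.8 CPM (log2 fold change 1.06, SE 0.23, edgeR adjusted p = 0.0065). Neither gene's groups overlapped, and both kept their call in all 15 alternative fits.

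COX19 and TMEM242 also rose in GFP-negative cells, by less. COX19 went from 12.4, 9.28 and 9.5 to 17.6, 16.3 and 16.3 CPM (log2 fold change 0.66, SE 0.20, edgeR adjusted p = 0.031). TMEM242 went from 21.9, 16.9 and 15.4 to 27.9, 24.9 and 28.5 CPM (log2 fold change 0.57, SE 0.19, edgeR adjusted p = 0.05, just under the threshold). NDUFAF6, a complex I factor of unsettled biochemical role, fell from 17.1, 13.8 and 10.7 to 8.03, 8.54 and 9.63 CPM (log2 fold change -0.69, SE 0.23, edgeR adjusted p = 0.048). The groups of all of these were apart, but each call was lost without some single libraries. The call of COX19 was lost without control replicate 2 (adjusted p = 0.14) or 3 (0.054) or treated replicate 1 (0.14), 2 (0.068) or 3 (0.064). That of TMEM242 was lost without the same libraries (0.18, 0.11, 0.17, 0.072 and 0.11). That of NDUFAF6 was lost without control replicate 1 (0.11) or 2 (0.14) or treated replicate 1 (0.17), 2 (0.12) or 3 (0.071). Without control replicate 1, 9 members were higher and 0 lower, and without control replicate 3, 2 were higher and 4 lower. Without control replicate 2 or treated replicate 1, 2 were higher and 0 lower, without treated replicate 2, 5 and 0, and without treated replicate 3, 2 and 1.

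The 3 members whose log2 CPM followed TTC19 most closely over the 12 libraries were COX19 (Pearson r = 0.93), TMEM242 (0.91) and COX11 (0.87), as a description of libraries that share treatments. COX11 had a log2 fold change of 0.46 in GFP-negative cells (adjusted p = 0.057). The members that fell in GFP-positive cells had log2 fold changes in GFP-negative cells of -0.62 for COA3 (adjusted p = 0.053), -0.43 for BCS1L (0.078), -0.86 for NDUFAF8 (0.10), -0.32 for UQCC2 (0.26), -0.23 for COA4 (0.50), -0.04 for ATPAF2 (0.88) and 0.36 for SCO2 (0.49). SCO2 was spread widely there, at 32.0, 19.8 and 67.2 CPM in treated against 34.5, 28.2 and 28.7 CPM in control libraries. COA7 had 16.6, 16.1 and 18.7 CPM in control and 21.0, 18.2 and 26.3 CPM in treated GFP-negative libraries, groups that overlap (log2 fold change 0.33, adjusted p = 0.23). The other members not called ranged from -0.81 for COX16 (adjusted p = 0.15) to 0.70 for SURF1 (adjusted p = 0.060).

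Whether a response differed between the sort fractions was tested by the interaction of treatment and fraction over the 12 libraries. These are scaled and fitted together, so the differences given here need not equal those between the log2 fold changes of the separate comparisons. In edgeR's quasi-likelihood test 0 of 45 members had a higher and 0 of 45 a lower log2 fold change in GFP-positive than in GFP-negative cells at an adjusted p under 0.05, where 0.968% and 1.22% of 16226 genes did. At an unadjusted p under 0.05 there were 6 members, and DESeq2 also called 0, with 7 at an unadjusted p under 0.05. The smallest adjusted p was that of ATPAF2 (difference of log2 fold changes -0.71, SE 0.23, adjusted p = 0.14), followed by SURF1 (-0.89, SE 0.33, 0.18), COA7 (0.65, SE 0.24, 0.19), NDUFAF3 (-0.76, SE 0.29, 0.20) and SCO2 (-1.23, SE 0.48, 0.21). ATPAF2, for example, had 34.9, 32.9 and 31.9 CPM in control and 30.5, 31.6 and 36.3 CPM in treated GFP-negative libraries, beside its fall in GFP-positive cells. The replicate block pairs the same-numbered fractions of a treatment. With it the calls were again 0 of 45 in each direction, where 3.20% and 4.59% of all genes were called, and 9 members had an unadjusted p under 0.05. With the GC trend removed as well, ATPAF2 had an adjusted p of 0.057 in edgeR's test. Over the 20 alternative fits, in edgeR or DESeq2, the lowest adjusted p was 0.051 for COA7 and 0.053 for ATPAF2. Over all genes, 157 were higher and 198 lower, with the block 519 and 745, and by library size alone, which moved the median from -0.05 to 0.20, 266 and 84.

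**Figure D5:**
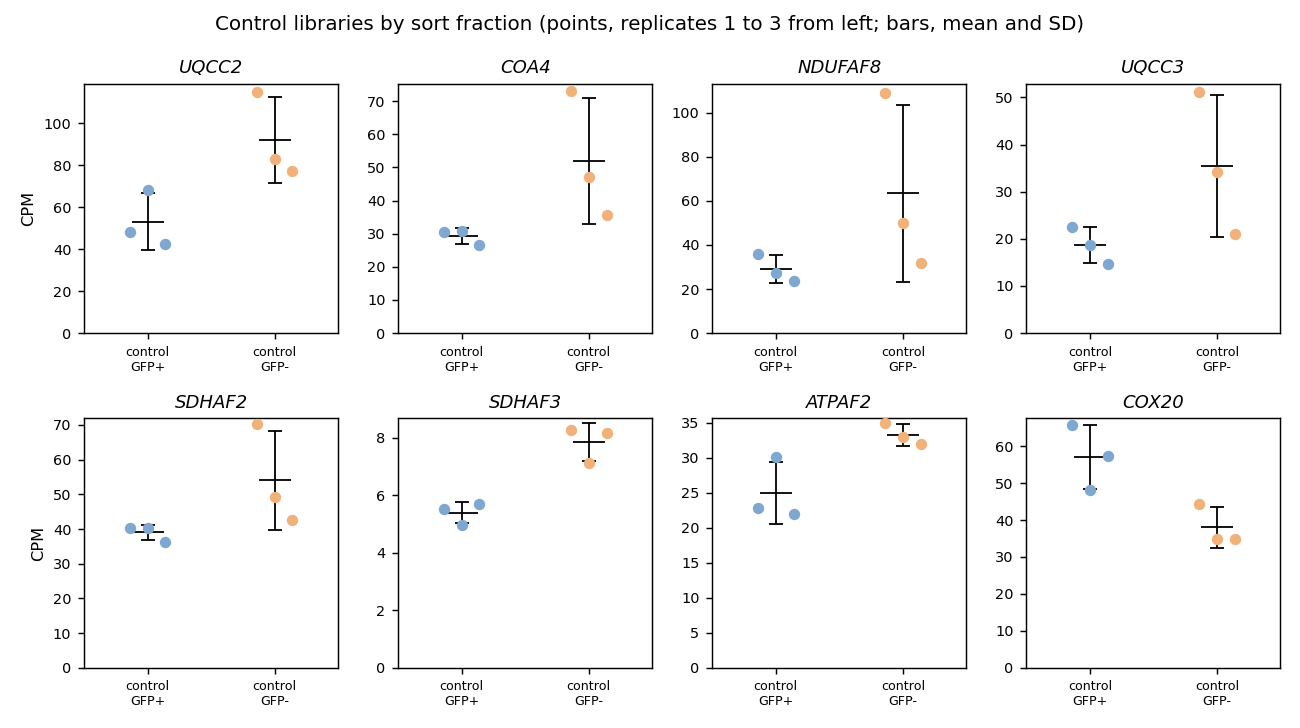
CPM (y axis, from 0) in control libraries of the 2 sort fractions (x axis) for the 8 members called between them, with a point for each library and bars for the mean and SD of 3 libraries. UQCC2, COA4 and SDHAF3 are lower in every GFP-positive library, while NDUFAF8 and UQCC3 reach down to the GFP-positive range in GFP-negative replicate 3. For NDUFAF8 and UQCC3 each GFP-positive library is lower than the GFP-negative library of the same number.

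Without treatment, 1 of 45 members (2.22%) was higher in GFP-positive than in GFP-negative cells, where 17.1% of 15404 genes were, and 7 of 45 (15.6%) were lower, where 23.1% were. NDUFAF8 and UQCC3 were at least 2-fold lower (2 of 45, against 15.3% of all genes). With the replicate block, 2 members were higher and 12 lower, where 23.9% and 27.7% of all genes were. The calls that the block added were NDUFAF5 (higher, log2 fold change 0.41) and NDUFAF2 (-0.54), ACAD9 (-0.38), FOXRED1 (-0.32), COX16 (-0.70) and COA6 (-0.56), all lower, with adjusted p of 0.012 to 0.048. Without control GFP-positive replicate 3 and no block, 0 were higher and 2 lower. Without GFP-positive replicate 2, 3 were lower, and without GFP-positive replicate 1 or GFP-negative replicate 2, 4 were. Without GFP-negative replicate 1, 3 were higher and 5 lower, and without GFP-negative replicate 3, 0 and 8. COX20, the member called higher, kept its call without GFP-positive replicate 2 or GFP-negative replicate 1 and lost it without each of the others.

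UQCC2 and COA4 kept their call in all 15 alternatives. UQCC2 had 48.3, 68.2 and 42.5 CPM in GFP-positive and 115, 82.9 and 77.2 CPM in GFP-negative libraries (log2 fold change -0.90, SE 0.21, edgeR adjusted p = 0.0073). COA4 had 30.5, 30.8 and 26.5 against 73.0, 47.0 and 35.7 CPM (log2 fold change -0.93, SE 0.24, edgeR adjusted p = 0.010). Both were lower in every GFP-positive library. NDUFAF8 had 35.9, 27.4 and 23.5 CPM in GFP-positive and 109, 49.9 and 31.9 CPM in GFP-negative libraries (log2 fold change -1.23, SE 0.37, edgeR adjusted p = 0.023). UQCC3 had 22.4, 18.7 and 14.7 against 51.1, 34.1 and 21.0 CPM (log2 fold change -1.03, SE 0.29, edgeR adjusted p = 0.018). In both genes GFP-negative replicate 1 was highest, and GFP-negative replicate 3 lay under GFP-positive replicate 1, so that the groups overlap. Each GFP-positive library was still lower than the GFP-negative library of the same number. GFP-negative replicate 1 had a Spearman rho of -0.37 between a gene's deviation and its length and 0.36 with GC content, the largest of the control libraries in size for both. The part of this in the result was not tested. Without that library the log2 fold change was -0.61 for NDUFAF8 (adjusted p = 0.026) and -0.68 for UQCC3 (0.020), both short of 2-fold, and -0.61 for COA4 (0.011). Without GFP-positive replicate 2 the adjusted p was 0.11 for NDUFAF8 and 0.083 for UQCC3, and without replicate 3 it was 0.096 and 0.080. With the block it was 0.00099 and 0.00059. Of the exon bases of UQCC3, 40.8% lie opposite LBHD1.

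Both complex II factors named next were lower in every GFP-positive library. SDHAF2 had 40.3, 40.3 and 36.3 against 70.2, 49.2 and 42.6 CPM (log2 fold change -0.57, SE 0.19, edgeR adjusted p = 0.035). Of the exon bases of SDHAF2, 44.75% lie within an unnamed protein-coding gene on the same strand, so reads there could belong to either. SDHAF3 had 5.52, 4.98 and 5.69 against 8.28, 7.11 and 8.18 CPM (log2 fold change -0.65, SE 0.21, edgeR adjusted p = 0.035). ATPAF2, the factor of the synthase alpha subunit, had 22.8, 30.1 and 22 against 34.9, 32.9 and 31.9 CPM (log2 fold change -0.52, SE 0.18, edgeR adjusted p = 0.039). COX20, a chaperone of COX2, was the member higher in GFP-positive cells, at 65.7, 48.2 and 57.4 against 44.4, 34.8 and 34.9 CPM (log2 fold change 0.48, SE 0.17, edgeR adjusted p = 0.05, just under the threshold). Of its exon bases 76.6% lie opposite HNRNPU, and it has 2 annotated pseudogenes. Each of these calls was lost without some single libraries. SDHAF2 was not called without GFP-negative replicate 1 (log2 fold change -0.35, adjusted p = 0.11) or 2 (0.074) or GFP-positive replicate 1 (0.091), 2 (0.10) or 3 (0.12), and SDHAF3 without any 1 of the 6 (0.053 to 0.11). ATPAF2 was not called without GFP-negative replicate 2 (0.12) or GFP-positive replicate 1 or 3 (0.14 each), and COX20 without GFP-negative replicate 2 (0.17) or 3 (0.074) or GFP-positive replicate 1 (0.19) or 3 (0.12). With the block the adjusted p was 0.0088 for SDHAF2, 0.019 for SDHAF3, 0.013 for ATPAF2 and 0.0078 for COX20. TTC19 and COA7, which rose most with treatment, differed between control fractions by 0.17 (adjusted p = 0.45) and -0.02 (0.93).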

How the data were processed

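The authors used HISAT2 with hg38 and Ensembl release 103, and featureCounts per the labels. The deposited values are raw counts per gene from a stranded mRNA kit, not normalized. Of the per-sample columns 0 were left unused. Groups and replicate numbers came from the sample labels. The members and gene lists were chosen with earlier results of these data known.

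Counts were tested with edgeR 4.0.16 in R 4.3.3 (TMM, filterByExpr with a minimum count of 10 and total of 15, quasi-likelihood F-test, Benjamini-Hochberg adjustment over all genes). With 3 libraries a group an exact permutation p cannot go below 0.1 and is not given. Alternatives were DESeq2 1.42.0, RLE scaling, library size alone, no filter, 10 counts in every library, all 12 libraries, a GC trend removed per library (loess span 0.5), a replicate block, and each library left out. Members called were named, up to 10 a direction by size, with the 5 smallest interaction p, and up to 2 genes per subunit list. The fits were run on simulated data with 200 changed genes. For the GFP-positive comparison edgeR recovered 200 of them among 15346 genes, with 10 false calls. Recovery at the members' own log2 fold changes was not tested. Same-numbered GFP-positive and GFP-negative libraries of a treatment were paired as likely sorts of 1 culture, which the sample titles do not state. Their deviations correlated at 0.172 to 0.505 in controls and 0.278 to 0.547 in treated cells, over 12437 genes. Of the libraries of each treatment, 6 of 6 were closest to their own number. The lowest value, 0.172 for control replicate 2, stood beside 0.13 for GFP-positive replicate 2 with GFP-negative replicate 1. Other sources of these correlations were not tested. No 2 libraries of a group agreed within sampling noise (chi-square per degree of freedom at least 23.6). Positions, lengths and GC content came from GENCODE 44, which is not the authors' annotation and matched 25928 symbols, and promoters from RefSeq. Mitochondrially encoded genes were not analysed here.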

Additional observations from a re-analysis of the deposited data

Results flagged for a closer look

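SDHAF3, which serves the iron-sulfur clusters of SDHB in complex II, was picked out because its libraries moved in opposite directions in the sort fractions. The rule asked for no overlap in either fraction, so the separation given next follows from the choice. The share of all genes that meet this rule was not counted. In GFP-positive cells it had 5.52, 4.98 and 5.69 CPM in control and 5.82, 7.82 and 6.09 CPM in treated libraries, so that every treated library was higher. In GFP-negative cells it had 8.28, 7.11 and 8.18 CPM in control and 6.82, 5.63 and 6.62 CPM in treated libraries, so that every treated library was lower. The log2 fold changes were 0.35 (SE 0.23, edgeR adjusted p = 0.21) and -0.33 (SE 0.23, edgeR adjusted p = 0.31), neither called. The interaction test, which scales all 12 libraries together, gave a difference of 0.59, which missed the threshold (adjusted p = 0.31 in edgeR's quasi-likelihood test). With levels of 4.98 to 8.28 CPM, SDHAF3 is among the lower members.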

How the results depend on the processing

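For the members called in a comparison and the 5 with the smallest interaction p, 428 results under alternative settings stayed on their side of the threshold, 92 kept the direction but missed it, and 0 reversed. Of the 428, 100 are interaction results, for which staying means still not called. Among members called, 188 stayed and 37 missed in GFP-positive cells, 50 and 25 in GFP-negative cells, and 90 and 30 between control fractions. Of the members not called, at least 1 alternative called 10 of 30 in GFP-positive cells, 11 of 40 in GFP-negative cells, 7 of 37 between control fractions and 0 of 45 for the interaction. Removing the GC trend added 6 in GFP-positive cells (ACAD9, COX20, FOXRED1, NDUFAF5, NDUFAF6 and SDHAF1). NDUFAF2, NDUFAF7, BCS1L, TTC19, COX10, COA3 and COA7 in GFP-positive cells kept their calls in all 15 alternatives each. In the same cells DESeq2 did not call NDUFAF4, and library size alone did not call UQCC2. ATPAF2 lost its call with the replicate block and the GC trend removed together. With each library left out in turn, the members higher and lower numbered 5 to 10 and 3 to 7 in GFP-positive cells, 2 to 9 and 0 to 4 in GFP-negative cells, 0 to 3 and 2 to 8 between control fractions, and 0 to 0 for the interaction. In GFP-negative cells (4 higher, 1 lower), no filter gave 2 higher, DESeq2 8 higher and 2 lower, all 12 libraries 9 higher and 2 lower, library size alone 3 lower, 10 counts in every library 2 lower, and the replicate block 0 lower, also with the GC trend removed. Between control fractions (1 higher, 7 lower), 0 were higher with no filter, with 10 counts in every library or with the GC trend removed, 2 with all 12 libraries, and with the replicate block 2 were higher and 12 lower, 11 of them lower with the GC trend removed as well. The cause was not tested. Treated and control libraries share only a number (correlations from -0.0576 to 0.347), and there the replicate block gave 10 higher and 8 lower members in GFP-positive and 3 higher and 0 lower in GFP-negative cells. The replicate block called 0 members for the interaction. The lowest member count in a library was 44, for COX16.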
